A study of Mus musculus with 2 samples.

Results

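The mouse beta-globin cluster was described through its 5 protein-coding genes, Hbb-bt, Hbb-bs, Hbb-bh2, Hbb-bh1 and Hbb-y, among 21938 protein-coding genes, and through every H3K4me3 peak on chr7:103790000-103900000 (mm10). That interval held 8 of the 37379 peaks of the replicated list, 11 of 41067 in the pooled list, 16 of 51781 in the replicate 1 list and 8 of 41501 in the replicate 2 list. The genes were taken by name from GENCODE M21, and the peaks by position alone, whatever their strength. The data were ChIP-seq peak lists for the histone mark H3K4me3 from MEL cells, an immortalized mouse leukaemia line that the labels describe as an analog of the human line K562. There was 1 group of 2 libraries, labelled biological replicates 1 and 2, with no treatment, inducer or second genotype named. Both libraries came from the same biosample, so differences between their lists may be technical. No test was run, because there was no second group to compare.

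The beta-globin genes encode the beta-type chains of haemoglobin. In the mouse, Hbb-y and Hbb-bh1 are embryonic genes, Hbb-bs and Hbb-bt are adult genes, and their transcription in red cells depends on a distant upstream control region, a run of DNase hypersensitive sites bound by erythroid factors. H3K4me3 is a histone mark found mainly at the start sites of active genes and, at lower levels, at some active enhancers. MEL cells are erythroid precursors blocked in maturation, and they raise their globin transcription when an inducer is given.

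All 5 genes are read from the minus strand, so upstream means a higher coordinate. From downstream to upstream the order is Hbb-bt, Hbb-bs, Hbb-bh2, Hbb-bh1, Hbb-y and then the control region. The control region was taken as the stretch from the Hbb-y start to the next protein-coding gene, the olfactory receptor gene Olfr66, at chr7:103853217-103879442, or 26226 bp. The reference genome carries the s haplotype of the cluster, per the RefSeq annotation note. The labels do not say which haplotype MEL cells carry.

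Promoters are printed first for the marked adult gene, the unmarked adult gene and the unmarked embryonic gene nearest the control region. The sequences run from 250 bases before to 50 bases after the RefSeq start, on the minus strand (RefSeq, GRCm38.p6, the build of mm10). Capitals mark exact matches on either strand. The words are CCAAT (the promoter box of that name), ATAAA (part of a TATA-type element), CAGNTG (E-box) and AGATAA (the element bound by GATA factors). The others are CCACACCC (one form of the CACCC box) and GCTGANTCA (NF-E2-type). Hbb-bt lies at chr7:103813874-103814173, Hbb-bs at chr7:103827879-103828178 and Hbb-y at chr7:103853158-103853457.
Hbb-bt: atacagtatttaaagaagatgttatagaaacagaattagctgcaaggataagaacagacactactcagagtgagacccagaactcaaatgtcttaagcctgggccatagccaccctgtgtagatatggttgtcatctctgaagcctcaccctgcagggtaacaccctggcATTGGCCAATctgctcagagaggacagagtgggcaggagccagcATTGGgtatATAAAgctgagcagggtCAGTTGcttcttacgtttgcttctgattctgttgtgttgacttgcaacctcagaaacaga
Hbb-bs: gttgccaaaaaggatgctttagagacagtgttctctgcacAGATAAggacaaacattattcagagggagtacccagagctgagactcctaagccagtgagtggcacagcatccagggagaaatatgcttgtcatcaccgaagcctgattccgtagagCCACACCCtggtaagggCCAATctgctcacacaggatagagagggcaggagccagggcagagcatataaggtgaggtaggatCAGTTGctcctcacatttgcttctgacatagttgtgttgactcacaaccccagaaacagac
Hbb-y: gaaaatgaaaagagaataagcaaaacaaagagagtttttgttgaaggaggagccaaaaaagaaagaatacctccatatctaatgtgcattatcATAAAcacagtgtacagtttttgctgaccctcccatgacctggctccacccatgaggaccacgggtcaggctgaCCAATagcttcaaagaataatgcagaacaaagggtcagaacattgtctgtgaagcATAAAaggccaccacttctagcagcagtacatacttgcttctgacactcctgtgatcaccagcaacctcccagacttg

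The Hbb-bt promoter held 3 CCAAT matches, ATAAA at -27 and an E-box at -10, counted from the RefSeq start. The adult Hbb-bs promoter held CCACACCC at -93, CCAAT at -76, an E-box at -11 and AGATAA at -210. It held no exact ATAAA, though it reads catataagg shortly before that E-box. An exact word can miss variants of an element. Hbb-y held CCAAT at -83 and ATAAA. The CACCC box is bound by KLF1, the erythroid activator of adult beta-globin. The full word CCACACCC was absent from the printed Hbb-bt and Hbb-y windows, though both hold the shorter CACCC. RefSeq annotates an EKLF-binding CACCC oligomer at chr7:103853305-103853327, within the Hbb-y window. Among 32851 RefSeq promoters of this length, 37.4% held CCAAT, 40.0% ATAAA, 51.4% CAGNTG, 11.2% AGATAA, 3.56% CCACACCC and 1.19% GCTGANTCA. In pairwise alignment, Hbb-bt and Hbb-bs were identical at 226 of 311 columns, or 72.7%. The other 5 pairs among the 4 promoters with an entry, including Hbb-bh2, ranged over 47.5% to 56.2%.

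Of the 5 genes, Hbb-bt alone had a peak within 1000 bp of a start site, the rule used here to call a gene marked. This held in each of the 4 lists. Hbb-bs, Hbb-bh2, Hbb-bh1 and Hbb-y had no such peak in any list. Over all protein-coding genes, 50.3% were marked in the replicated list, 50.6% in the pooled list, 50.4% in replicate 1 and 50.9% in replicate 2. All 5 genes have few CpG dinucleotides around their starts, and low-CpG promoters (observed to expected ratio under 0.4) were marked in 16.6% of cases in the replicated list. One marked gene in 5 is near that background, so the count is no result about the cluster.

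The CpG counts over 1001 bases around the start were 6 for Hbb-bt, 5 for Hbb-bs, 7 for Hbb-bh2, 6 for Hbb-bh1 and 3 for Hbb-y. Observed to expected ratios ranged from 0.0679 for Hbb-y to 0.139 for Hbb-bh2. The marked gene therefore lay within the range of the unmarked ones. The distance from the start to the nearest replicated peak was 5472 bp for Hbb-y, 13592 bp for Hbb-bs, 15524 bp for Hbb-bh1 and 18168 bp for Hbb-bh2. For Hbb-y that peak was the first of the control region, upstream of the gene.

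**Figure D1:**
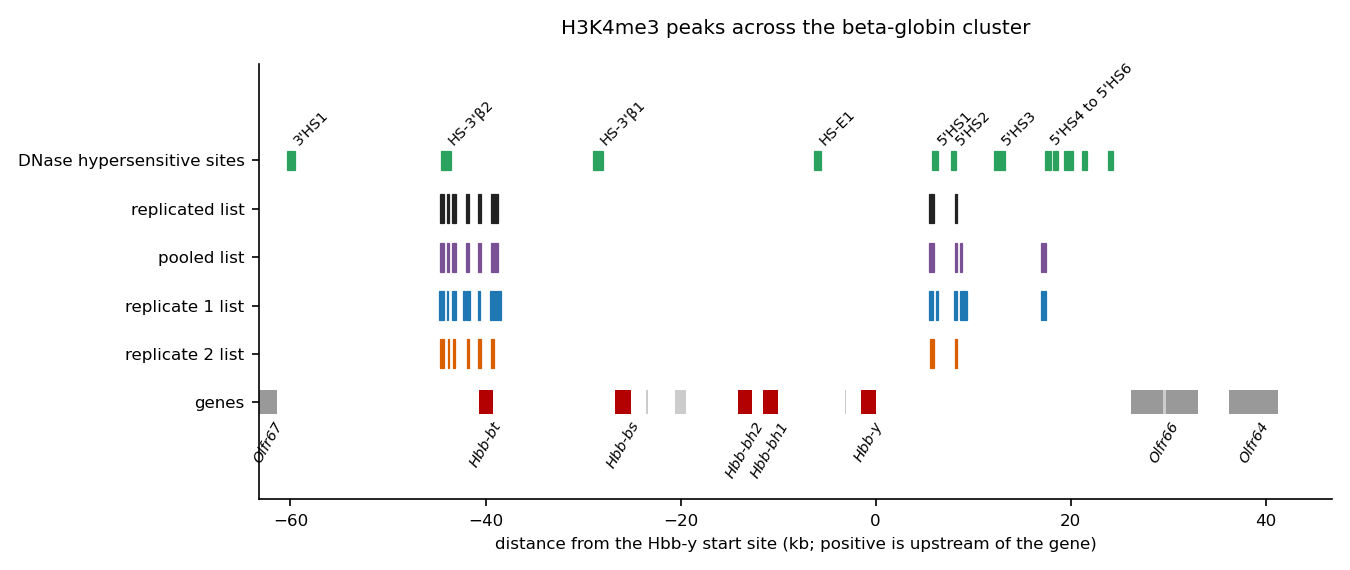
Map of the peaks on the 110 kb interval, with the distance from the Hbb-y start site in kb on the horizontal axis and rows for hypersensitive sites, the 4 peak lists and genes (red: the 5 beta-globin genes, dark grey: olfactory receptor genes, light grey: pseudogenes). In every list the peaks form a group around Hbb-bt and a group in the control region, with 44183 bp between them in the replicated list.

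The peaks fell into 2 groups. The downstream group ran from the flank of Hbb-bt to its start and held 6 of the 8 replicated peaks. The other 2 replicated peaks lay in the control region. Between the groups, 44183 bp had no replicated peak, and the span was 43838 bp in replicate 1 and 44655 bp in replicate 2. This span holds Hbb-bs, Hbb-bh2, Hbb-bh1, Hbb-y and the hypersensitive sites HS-3'β1 and HS-E1. The 7 other annotated genes of the interval, Olfr67, Olfr66, Olfr64, Hbb-bh3, Hbb-bh0, Gm15115 and Dnajc19-ps, were unmarked in all 4 lists.

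Each peak has a signal value, a score made by the authors without a stated definition. It is used here as a rank within a list, and a percentile is the percent of the list's peaks with an equal or lower value, the peak itself included. The peak at the Hbb-bt start, chr7:103813815-103814504, was 690 bp wide with a signal value of 5.37 in the replicated list, at the 39.1 percentile. Its summit at 103813995 lay 1 bp from the GENCODE start at 103813996, as did the replicate 2 summit. The replicate 1 summit lay 162 bp upstream of the GENCODE start. The RefSeq start, from which the promoter words are counted, lies farther downstream, so all 3 summits lay upstream of it. The replicated peak covered all 300 bases of the promoter printed for Hbb-bt.

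In replicate 1 the Hbb-bt start peak was 1117 bp wide and reached the 73.3 percentile. In replicate 2 it was 265 bp wide and reached the 41.2 percentile, covering 211 of the 300 promoter bases. The replicate lists thus placed the same promoter above and below their own medians. Among genes marked in a list, ranked by strongest start-site peak, Hbb-bt was 10642 of 11037 in the replicated list, 8962 of 11051 in replicate 1 and 10802 of 11176 in replicate 2. It was in the lower part of the ranking in each of these lists. The genes next to it in the replicated list were Gm9837, Spns3 and Cfap126 above and Kif13a, Glp1r and Btbd16 below, by signal value alone over 1 list.

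A second peak over Hbb-bt, chr7:103812426-103812702, had its summit in the last exon, 1432 bp downstream of the start. It was 277 bp wide, with a signal value of 4.72 at the 32.1 percentile of the replicated list, and 59.0 in replicate 1 and 23.3 in replicate 2. Its −log10 q of 10.03 in the replicated list was the highest of the 8 peaks, above the 8.72 of the start-site peak. The 1112 bp between these peaks, inside the gene, consist to 91.1% of 32-base words that occur again in the genome, all of them within the interval. Over the whole gene body the share was 74.4% in Hbb-bt and 70.0% in Hbb-bs. The read length is not given, so how many reads could be placed there is unknown, and the part of repeated sequence in the gap was not tested.

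The proximal promoters were read in the same way. No 32-base word of the 300 bases printed for Hbb-bt or Hbb-bs occurred more than once. Over the 1001 bases around the start, 30.2% of words were repeated at Hbb-bt and 20.8% at Hbb-bs. At Hbb-bh2, Hbb-bh1 and Hbb-y the value was 0%. The part of repeated sequence in which promoters had a peak was not tested.

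**Figure D2:**
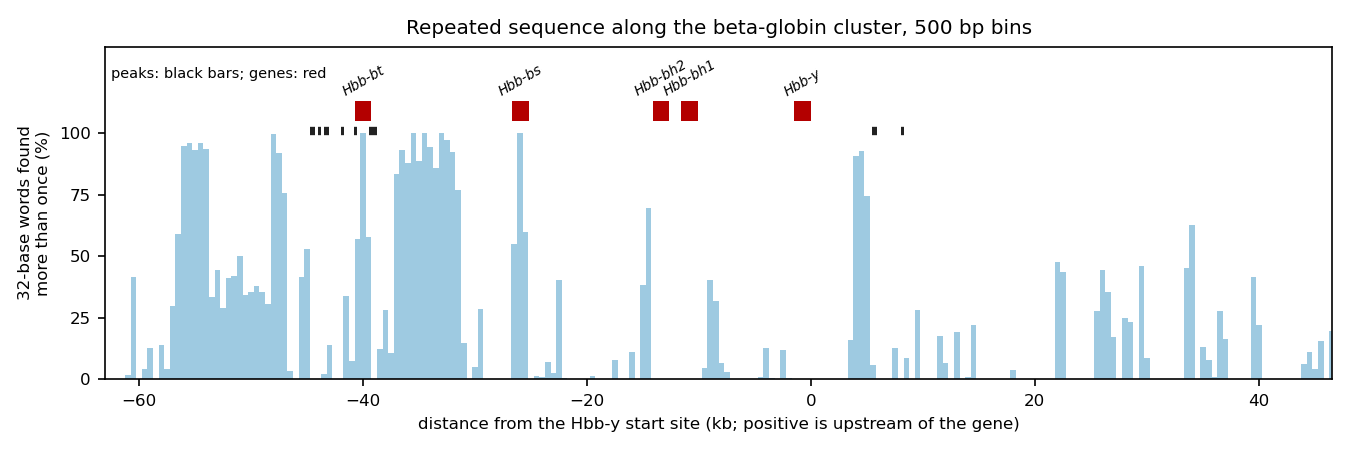
Percent of 32-base words that occur more than once in the genome, in 500 bp bins along the interval, against the distance from the Hbb-y start site in kb, with replicated peaks as black bars and the 5 genes in red. The tops over Hbb-bt and Hbb-bs are the shared gene bodies, and 6 of the 8 peaks hold no repeated word.

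Downstream of Hbb-bt, 4 further replicated peaks led toward HS-3'β2, a hypersensitive site with enhancer activity in reporter assays per the RefSeq annotation. The peak at chr7:103808534-103808954 was 421 bp wide with a signal value of 3.84, and stood at the 20.0 percentile in the replicated list, 35.7 in replicate 1 and 27.7 in replicate 2. The peak at chr7:103809273-103809473 was 201 bp wide with a signal value of 2.68, at 3.29, 19.7 and 3.21. Both overlap HS-3'β2 and together cover 50.5% of its 1000 bp.

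Outside that site, the peak at chr7:103809776-103810205 had a signal value of 2.78 and stood at 4.32 in the replicated list and 5.78 in replicate 2. In replicate 1, 2 peaks overlapped it, at 1.93 and 43.4, and the summit of the replicated peak lay within the weaker one. The peak at chr7:103811264-103811563 had a signal value of 3.58 and stood at 15.4, 27.4 and 26.2. For the last of these the replicates differed by little, while for the one before it replicate 1 ranked lower at the summit and higher beside it. With gaps of up to 1000 bp closed, replicate 1 joined 7 peaks from HS-3'β2 to the last exon of Hbb-bt into 1 stretch of 4230 bp. Replicate 2 gave stretches of 1480 and 1435 bp over the same ground.

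The annotated enhancer fragment of HS-3'β2, chr7:103809068-103809232, is printed beside its counterpart downstream of Hbb-bs, HS-3'β1, at chr7:103824674-103824846, because peaks flank the first and not the other (plus strand, GRCm38, limits from RefSeq).
HS-3'β2: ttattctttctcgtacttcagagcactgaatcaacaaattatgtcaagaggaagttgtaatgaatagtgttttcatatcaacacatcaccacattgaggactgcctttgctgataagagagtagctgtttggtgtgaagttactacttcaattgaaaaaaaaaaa
HS-3'β1: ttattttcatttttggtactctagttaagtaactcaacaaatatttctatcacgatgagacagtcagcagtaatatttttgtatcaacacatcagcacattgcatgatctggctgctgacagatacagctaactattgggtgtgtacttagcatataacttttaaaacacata

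The fragments were identical at 115 of 175 aligned columns, or 65.7%, and neither holds a repeated word. The HS-3'β2 fragment ends 3292 bp downstream of Hbb-bt and lay in the gap between its flanking peaks, with 0 bp covered and 41 bp to the nearest replicated peak. The HS-3'β1 fragment ends 1688 bp downstream of Hbb-bs and lay 10170 bp from the nearest replicated peak. Peaks thus flanked the fragment beside the marked gene, and no list held a peak at the one beside the unmarked gene. This is 1 pair of fragments, and no test was run.

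**Figure D3:**
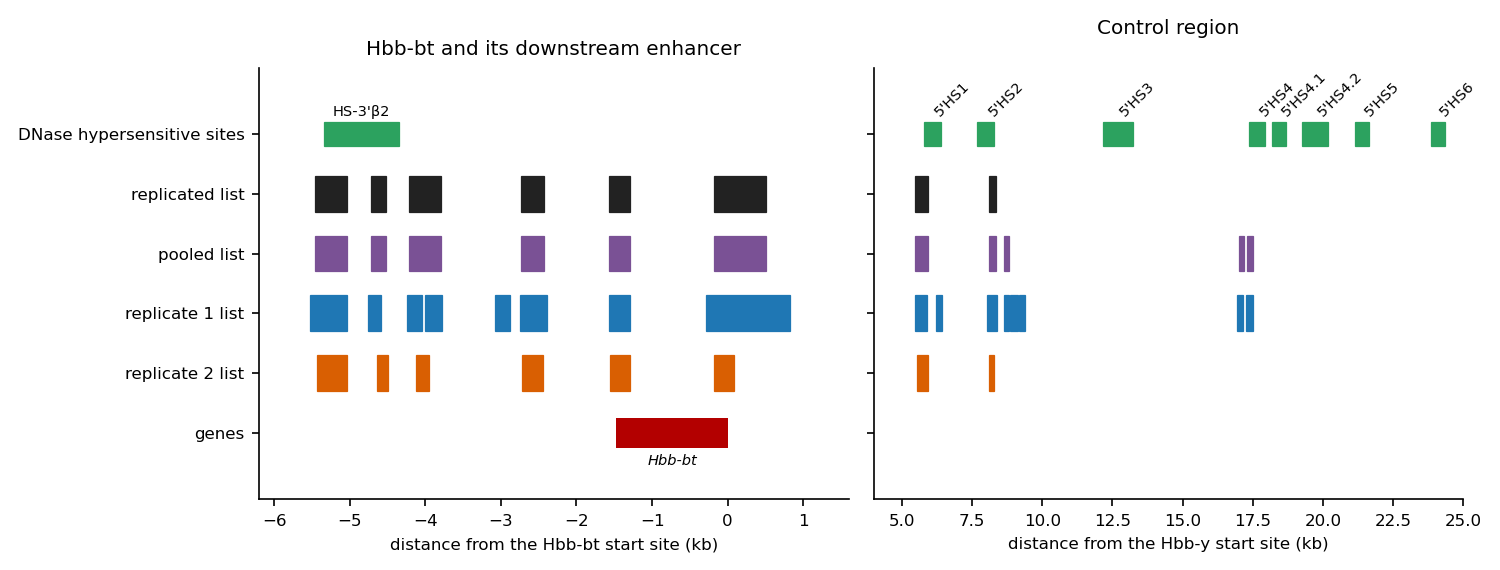
Closer maps of the Hbb-bt end (left, distance from the Hbb-bt start site in kb) and of the control region (right, distance from the Hbb-y start site in kb), with hypersensitive sites in green and the 4 peak lists by row. Peaks flank rather than cover the middle of HS-3'β2, and in the control region the replicated list reaches 5'HS1 and 5'HS2 while replicate 1 also reaches 5'HS4.

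In the control region the replicated list held a peak at 5'HS1 and a peak at 5'HS2, the first sites upstream of Hbb-y. The 5'HS1 peak, chr7:103858688-103859149, was 462 bp wide with its summit 5814 bp upstream of the Hbb-y start and a signal value of 4.34. It stood at the 27.5 percentile in the replicated list, 49.3 in replicate 1 and 29.5 in replicate 2. The 5'HS2 peak, chr7:103861300-103861557, was 258 bp wide with its summit 8197 bp upstream and a signal value of 2.71. 5'HS2 is known as a strong enhancer of the cluster, yet its peak stood at 3.52 in the replicated list, 33.1 in replicate 1 and 0.530 in replicate 2. Its −log10 q was 8.53 in replicate 1 and 1.19 in replicate 2, so the replicate 2 call has a q-value above 0.05.

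The whole 5'HS2 peak is printed with the tandem NF-E2 sites of 5'HS2, chr7:103861084-103861102, to show the sequence that carried the peak beside the sites it did not reach (plus strand, GRCm38). Capitals mark GCTGANTCA on either strand, and the peak holds no match to the motifs searched at summits.
5'HS2 peak: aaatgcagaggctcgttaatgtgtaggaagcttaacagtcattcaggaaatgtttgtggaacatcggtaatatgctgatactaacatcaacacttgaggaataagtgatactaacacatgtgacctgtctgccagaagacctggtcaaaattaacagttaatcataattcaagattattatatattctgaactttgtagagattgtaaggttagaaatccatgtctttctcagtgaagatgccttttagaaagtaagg
5'HS2 NF-E2 sites: TGACTCAGCaTGACTCAGC

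NF-E2 is an erythroid dimer with a small MAF partner. The tandem sites lay 198 bp from the nearest replicated peak, 154 bp in replicate 1 and 221 bp in replicate 2. The footprinted GATA-1 site of 5'HS2 lay 269 bp from the replicated peak. The 335 bp removed in the annotated core deletion of 5'HS2, chr7:103860900-103861234, ended 66 bp short of it. Peaks were thus called beside this core deletion and not over it, in all 4 lists. The same held for the reporter fragment of HS-3'β2, which is not annotated as a core.

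GCTGANTCA occurred 7 times in the interval, and none of these matches lay in a replicated peak. In the control region there were 4 matches, and every one fell inside an annotated hypersensitive site, 1 in 5'HS1, 2 in 5'HS2 and 1 in 5'HS3. The 5'HS1 match lay 137 bp from the replicated peak. CCACACCC occurred 2 times, one of them the Hbb-bs promoter match, and neither was in a peak. Within 150 bp of the 8 replicated summits, GCTGANTCA matched 0 (1.37% of all replicated peaks), CCACACCC 0 (2.83%), AGATAA 3 (15.1%) and CAGNTG 4 (49.3%). Over the 18948 replicated peaks away from protein-coding starts, these shares were 1.85%, 2.77%, 21.4% and 50.5%, in the same order. A match is a description of letters and shows nothing about binding.

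Hypersensitive sites farther upstream had a peak in some lists. 5'HS4 was reached in replicate 1 and in the pooled list, each covering 149 of its 584 bp, and not in replicate 2 or the replicated list. No list held a peak at 3'HS1, HS-3'β1, HS-E1, 5'HS3, 5'HS4.1, 5'HS4.2, 5'HS5 or 5'HS6. Of 12 annotated sites, 3 had a peak in the replicated list, 4 in the pooled list, 4 in replicate 1 and 3 in replicate 2. The annotation calls the site limits approximate.

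Coverage of the control region by peaks was 2.75% in the replicated list (720 bp), 4.89% in the pooled list (1282 bp), 8.12% in replicate 1 (2130 bp) and 2.28% in replicate 2 (599 bp). For scale, replicated peaks covered 2.76% of the whole interval and 1.15% of the genome. Replicate 1 held 8 peaks in the control region and replicate 2 held 2. In the replicate 1 list, 2 of these 8 were overlapped by a replicate 2 peak, and both replicate 2 peaks were overlapped by replicate 1. Most of the replicate 1 peaks that replicate 2 lacked thus lay in the control region.

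Over the whole interval, 9 of 16 replicate 1 peaks (56.3%) were overlapped in replicate 2, against 77.5% for all replicate 1 peaks. In the other direction it was 8 of 8, against 84.0%. Counted in bases, 1961 of 5321 bp called in either replicate were called in both, a Jaccard index of 0.369, against 0.707 over the genome. The replicate 1 list is longer throughout, which moves with these values, and its part was not tested.

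**Figure D4:**
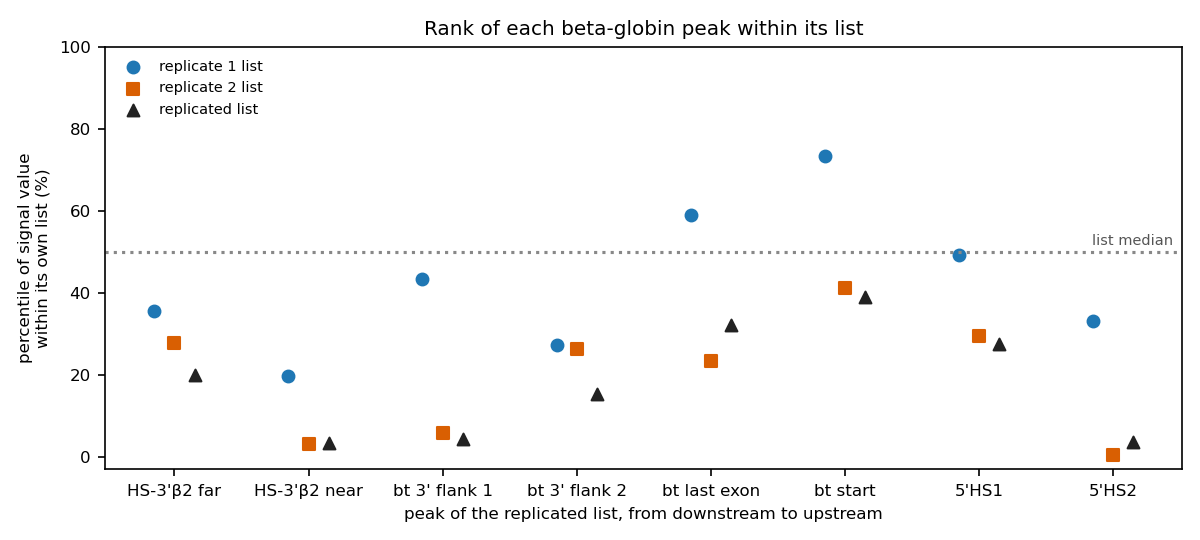
Percentile of signal value within its own list (vertical axis, %) for each of the 8 replicated peaks, ordered from downstream to upstream (far and near are the HS-3'β2 peaks farther from and nearer to Hbb-bt, bt is Hbb-bt), in replicate 1, replicate 2 and the replicated list. Replicate 1 exceeds its list median at the Hbb-bt last exon and start, where it reaches 59.0 and 73.3, and replicate 2 stays at or below 41.2 throughout. At chr7:103809776-103810205, 2 replicate 1 peaks overlapped the replicated peak, and the stronger is shown.

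Set against all replicated peaks, the beta-globin peaks were numerous and low in signal. Signal values ran from 2.68 to 5.37, against a list median of 6.79, and no region peak exceeded the median of the replicated, pooled or replicate 2 list. In replicate 1, 2 of 16 did. Widths ran from 201 to 690 bp, against a median of 603 bp, and the Hbb-bt start peak was the one above it. The other 7 peaks can be set against the 18948 replicated peaks away from protein-coding starts, whose medians were 4.60 in signal and 379 bp in width. Their signal percentiles in that set ran from 5.43 to 52.1, and the last-exon peak of Hbb-bt was the one above the median. Their width percentiles ran from 15.0 to 59.4, and 3 of the 7, at 421, 430 and 462 bp, were wider than the median.

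The genome was also divided into 24767 tiles of 110000 bp. Of these, 62.7% had no peak and 1272, or 5.14%, held at least the 8 peaks of the beta-globin interval. The strongest peak in such a dense tile had a median signal value of 17.2, against 5.37 at beta-globin. Only 3 of the 1272 dense tiles, or 0.236%, had no peak stronger than 5.37. Peaks covered 3039 bp at beta-globin and a median of 8278 bp in the dense tiles. The interval was set around the cluster and not by the tile grid, so this places it among tiles and tests nothing.

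**Figure D5:**
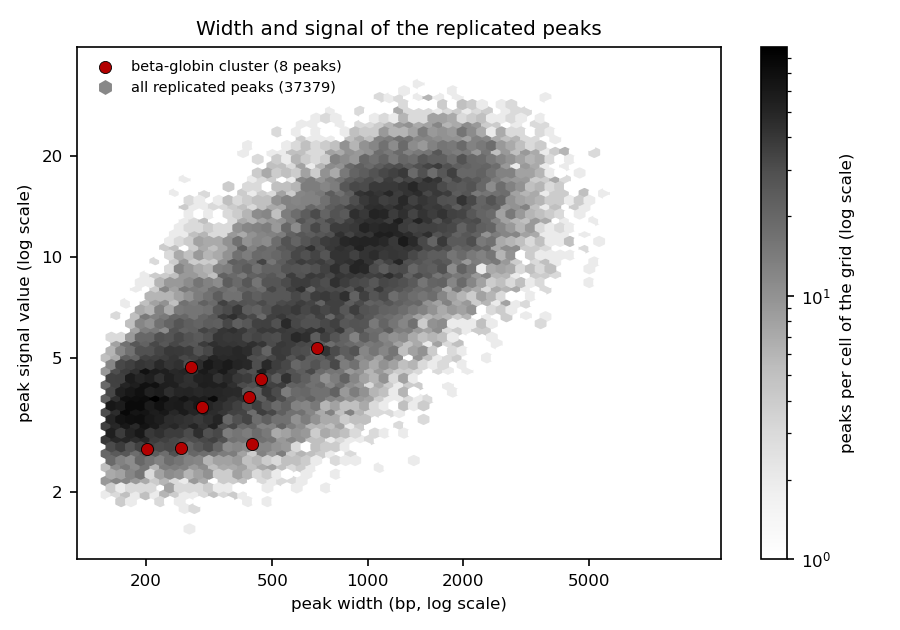
Peak width (bp, log scale) against signal value (log scale) for all 37379 replicated peaks, shown as grid cells shaded by the number of peaks, with the 8 beta-globin peaks in red. The 8 lie in the low-signal part of the cloud, between 201 and 690 bp and between 2.68 and 5.37.

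The beta-globin peaks were poorer in CpG and GC than the median replicated peak. In 300 bases around each summit there were 0 to 2 CpG dinucleotides, and 3 of the 8 windows had none. The median was 7 over all replicated peaks and 4 over those away from starts. Windows with none made up 2.34% of all replicated peaks and 4.10% of those away from starts. GC content was 28.0% to 49.0%, against a median of 49.3% over all replicated peaks and 45.7% over those away from starts.

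For context, a list of 33 published or textbook regulators of the beta-globin locus was read, and each gene was marked in all 4 lists. They include the activators Klf1, Gata1 and Nfe2, the looping factor Ldb1, the gamma-globin repressor of human cells Bcl11a, and Ctcf, which binds sites flanking the cluster. Their start-site peaks had a median signal value of 15.0 in the replicated list, and ranked from 178 (Kdm1a, a histone demethylase) to 10475 (Dnmt1, a DNA methyltransferase). Every one ranked above Hbb-bt in the replicated, pooled and replicate 2 lists. In replicate 1, Tcf3 (rank 10396) and Sox6 (rank 10080) stood below Hbb-bt (rank 8962). Against the 50.3% of all genes, the share is high, but the list was chosen with results of these data known.

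Among the other globins, 3 of 8 found in the annotation were marked: Hba-a1, an adult alpha-globin gene, with a signal value of 3.66 and rank 10917, Hbq1b with 7.30 and rank 10198, and Cygb with 7.63 and rank 10095. The Hba-a1 peak thus ranked below that of Hbb-bt. In the replicated list it lay 79 bp from the start and covered 0 bp of the gene body. Hba-a2 was unmarked in all 4 lists, and repeated sequence was not measured at the alpha-globin genes. Of 8 erythroid markers, 7 were marked, Slc4a1 (the red cell anion exchanger) being the exception. Of 8 genes listed as markers of other cell types, 1 was marked, Pecam1, with a signal value of 3.91 and rank 10878. For scale, 50.3% of all protein-coding genes were marked in the replicated list, and 16.6% of those with low-CpG promoters. The globin count of 3 of 8 lies between these shares. All 3 lists are short and were also chosen with results of these data known.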

How the data were processed

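H3K4me3 ChIP-seq was deposited for 2 MEL libraries as narrowPeak lists on mm10: 1 per replicate, 1 pooled and 1 replicated. The authors' peak signal value is a score, and the authors' −log10 q-value is given per peak, per the deposited notes. The sources used here name no aligner, peak caller or rule for a replicated peak. The lists hold no read counts, so depth is unknown. A list on mm9 was not used here.

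Peaks on the assembled chromosomes were compared with GENCODE M21 genes and with RefSeq elements and promoters on GRCm38, using Python 3.11.15, pandas 2.3.3, pysam 0.24.0 and Biopython 1.88. Every row of the replicated list occurs in the pooled list, so these are not independent. A gene was marked where a peak lay within 1000 bp of any start, and 1 bp counted as overlap. Distances from a start use GENCODE, and positions of promoter words use the RefSeq start. Repeated words are 32-base words found more than once on either strand; the read length is not given. Gene marking, peak overlap and the motif search were tested on simulated data, and the other steps were not.

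The members and gene lists were chosen with earlier results of these data known. Named genes are the 5 members, the other genes of the interval, the 3 neighbours in rank on each side of the strongest member, and genes from the fixed lists. One sequence is not reported here.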

Additional observations from a re-analysis of the deposited data

How the results depend on the processing

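Hbb-bt remained the 1 marked gene of the 5 under all 9 alternatives tried (each replicate list, the pooled list, −log10 q of at least 2 or 5, windows of 500 or 2500 bp, the 5'-most start, and a peak covering the start). The number of peaks in the interval was 8 to 16 with 1 replicate left out and 3 at −log10 q of at least 5, where the Hbb-bt start, its last exon and 5'HS1 stayed. In the control region it was 2 to 8 with 1 replicate left out (8 without replicate 2, that is in replicate 1 alone), 5 in the pooled list and 1 at −log10 q of at least 5, and coverage was 2.28% to 8.12% with 1 replicate left out. Overlap between replicates fell to 5 of 16 replicate 1 peaks (31.3%) when 50% of the peak, or of both peaks, had to be shared, against 71.1% and 52.5% of all replicate 1 peaks. It fell to 5 of 8 replicate 2 peaks (62.5%) when 50% of both had to be, near the 65.5% of all replicate 2 peaks. Of the 33 regulators, 27 had a peak covering a start. No paired analysis was possible because there is 1 group. The cause of these changes was not tested. Without read counts, a missing peak cannot be told from too few reads.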
